A study of Mus musculus with 8 samples.

Results

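The genes described here make the coat of the mouse egg and the egg's side of sperm binding and fusion. They are Zp1, Zp2 and Zp3, which encode the zona pellucida glycoproteins, Astl, which encodes the cortical granule protease ovastacin, Izumo1r, which encodes the sperm receptor Juno, and the tetraspanin genes Cd9 and Cd81. Members were chosen by name: every probe set that the platform annotation assigns to 1 of these 7 genes was taken, which gave 7 probe sets, 1 per gene, of 45037 probe sets other than controls. All 7 passed the filter on dim signals, for which a probe set had to exceed the median signal of an array on 4 or more of the 8 and which left 12359 genes.

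The arrays measured mRNA on polysomes, that is, strung with several ribosomes and so in the course of translation. They held 4 independent batches of mouse oocytes arrested at metaphase II (MII) and 4 of embryos at the one-cell stage that had received α-amanitin, which blocks RNA polymerase II, with 160 to 500 eggs or embryos in a batch. The strain, the age of the females and the way the embryos were obtained are not stated in the labels. Stage and α-amanitin differ between the same groups and cannot be told apart, and neither can the amount of an mRNA and its loading onto ribosomes.

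The zona pellucida is a glycoprotein matrix that the growing oocyte secretes around itself and that sperm must bind and cross. After fertilization the cortical granules release ovastacin, which cleaves ZP2 so that further sperm no longer bind, and Juno is shed from the egg membrane. Juno binds IZUMO1 on the sperm head, and CD9, helped by CD81, is needed on the egg membrane for fusion. The comparison of MII oocytes with one-cell embryos asks which of these maternal mRNAs were on ribosomes before and after that transition.

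The 7 mRNAs did not move together. Polysomal mRNA of Izumo1r and Cd9 rose strongly, that of Zp2 rose less, Astl and Cd81 fell, and Zp1 and Zp3 did not pass the test. The calls for Zp2 and Cd81 were lost in several other settings. In the limma fit across all kept probe sets (adjusted p under 0.05), 3 members were higher in one-cell embryos, against 20.1% of all genes, and 2 were lower, against 14.7%. The signals of the groups did not overlap for 4 members, Izumo1r, Cd9, Zp2 and Astl, against 35.2% of all genes. The median change of all genes was 0.16 on the log2 scale in the deposited signals, but -0.10 with quantile normalization and -0.16 with each array centred on its median. The share of called probe sets that were higher moved likewise, from 60.2% to 48.7% and 50.8%.

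**Figure D1:**
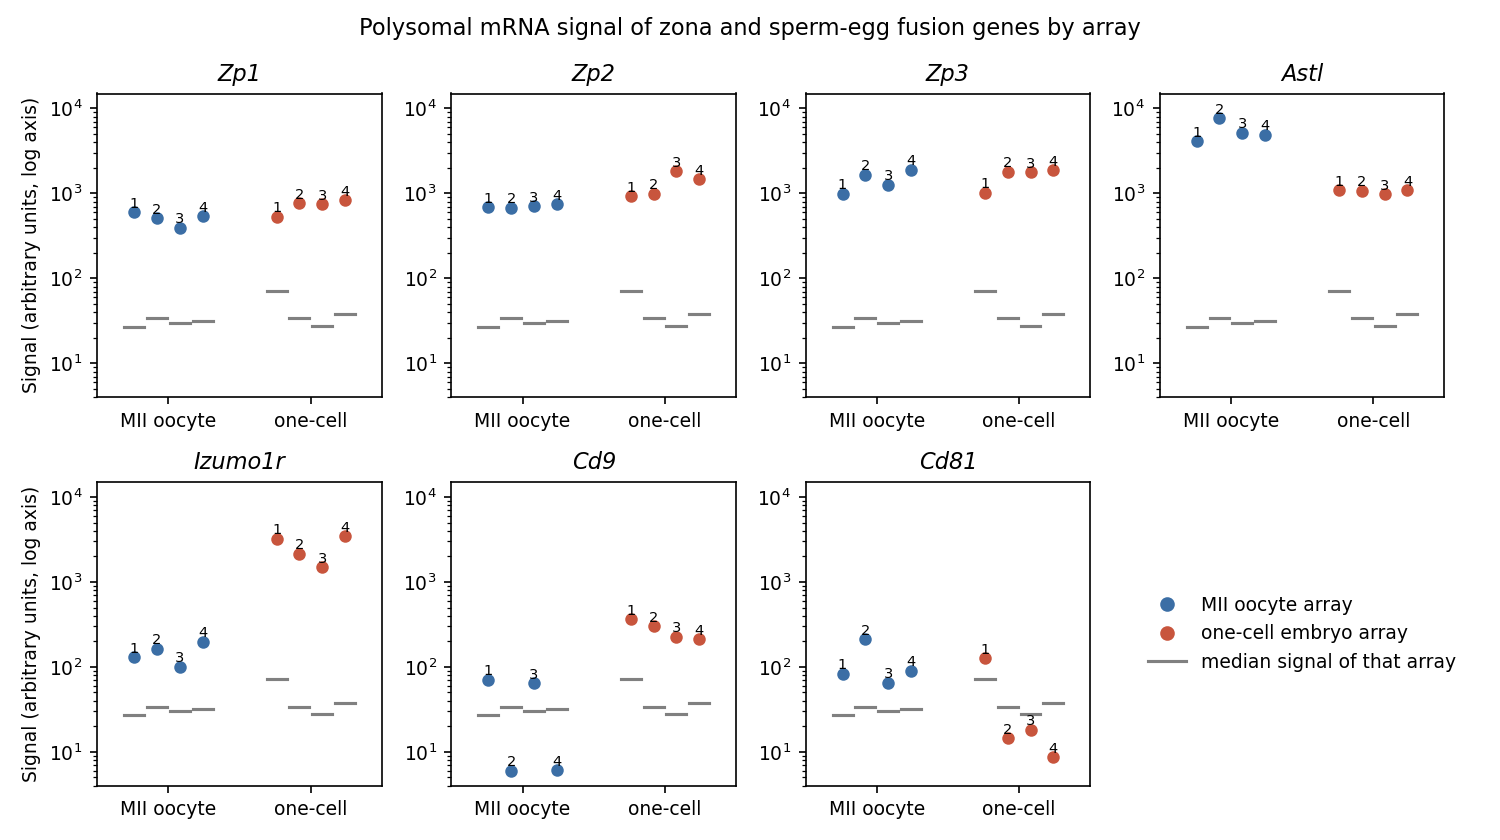
Signal of each gene on each of the 8 arrays (arbitrary units, log axis), with MII oocytes in blue, one-cell embryos in red, the replicate number beside each point and a grey line at the median signal of that array. Izumo1r and Cd9 are higher and Astl is lower on all 4 one-cell arrays, while 2 Cd9 points among the oocytes and 3 Cd81 points among the embryos lie under the array median.

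The arrays differed in quality. The median of one-cell array 1 was 71.8, where the other 7 arrays had 26.9 to 37.9, and its 18 hybridization controls had a geometric mean of 14879 against 857 to 3718. Signal at the 3′ end of 18S rRNA was 1583 to 2971 on the MII arrays and 10688 to 66754 on the one-cell arrays, without overlap. MII array 2 stood apart in its Actb 3′ to 5′ ratio of 65.9, where the range elsewhere was 4.49 to 11.6. The part of the 18S rRNA difference in the results was not tested. The cells were checked against their markers. All 18 oocyte marker genes were kept, with a summed signal of 113665 to 147285 on the MII arrays and 86405 to 124519 on the one-cell arrays. Of 18 cumulus and granulosa cell markers on the array 10 were kept, and Amh and Cd44 lay under the median of every array. Their summed signal over 43 probe sets was 1209 to 1517 on the MII arrays, 799 to 1548 on one-cell arrays 2 to 4 and 3138 on one-cell array 1. None of the 10 passed the test in limma in either direction, where 20.1% of all genes were higher and 14.7% lower. Of the 10, 0 had an unadjusted p under 0.05, although 1 was lower after quantile normalization and 1 after median centring.

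Of the zona genes, Zp2 rose and the other 2 did not pass the test. ZP2 is the glycoprotein that sperm bind and that ovastacin cleaves. The Zp2 signal (probe set 1449016_at) was 691, 679, 702 and 746 on MII arrays 1 to 4 and 926, 997, 1826 and 1469 on one-cell arrays 1 to 4. Every one-cell array was above every MII array. The oocyte batches agreed closely, with a coefficient of variation of 4.14%, against 32.4% among the embryo batches. The mean was 704.5 ± 29.2 (SD, n = 4) before and 1304 ± 423 after. Changes are given as embryo minus oocyte on a log2 scale after adding 10 to each signal, with the SE from limma, and for Zp2 the change was 0.82 ± 0.29 (95% interval 0.22 to 1.43, limma adjusted p = 0.0371, two-sided exact permutation p = 0.0286, the smallest that 4 against 4 arrays allow). Of all genes 24.8% had a greater rise, and 42.1% had a larger change in either direction. The call was lost under 9 of 20 other settings, among them median centring (0.51, adjusted p = 0.452) and leaving out any 1 of the MII arrays, one-cell array 3 or one-cell array 4 (0.65 to 0.85, adjusted p = 0.0683 to 0.112). In none of the 20 did the change turn negative.

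ZP1 cross-links the zona filaments. The Zp1 signal (1450306_at) was 600.3, 509, 392 and 539 on MII arrays 1 to 4 and 529.6, 769, 750.5 and 828 on one-cell arrays 1 to 4. One-cell arrays 2 to 4 were above all oocyte arrays, and one-cell array 1 lay among them. The means were 510.1 ± 87.5 (SD, n = 4) and 719 ± 131, with a log2 change of 0.48 ± 0.27 (95% interval -0.09 to 1.06, limma adjusted p = 0.201, exact permutation p = 0.0857). With array weights, which give arrays that fit less well less influence, the change was 0.64 and passed (limma adjusted p = 0.0456).

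ZP3 forms the zona filaments with ZP2. The Zp3 signal (1419007_at) was 998, 1652, 1267 and 1893 on MII arrays 1 to 4 and 1018, 1795, 1769 and 1873 on one-cell arrays 1 to 4. The groups covered nearly the same range. The means were 1452 ± 398 (SD, n = 4) and 1613 ± 399.8, and the log2 change of 0.15 ± 0.31 had a 95% interval from -0.51 to 0.82 (limma adjusted p = 0.772). Its sign turned after median centring (-0.16) and without MII array 1 (-0.012). Set against the median gene, the changes were 0.66 for Zp2, 0.32 for Zp1 and -0.01 for Zp3.

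The zona genes shared their lowest one-cell array: Zp1, Zp2 and Zp3 each had their smallest embryo signal on array 1, the array with the high median. Without that array the log2 changes were 0.97 for Zp2, 0.62 for Zp1 and 0.36 for Zp3, and the call for Zp2 held (limma adjusted p = 0.00884). Among oocytes the order of the arrays was not shared, since MII array 1 was the highest for Zp1 and the lowest for Zp3. The log2 ratio of the Zp2 to the Zp3 signal within an array, with no offset added, ran from -1.34 to -0.53 on the MII arrays and from -0.85 to 0.05 on the one-cell arrays. That of Zp1 to Zp3 ran from -1.81 to -0.73 and from -1.24 to -0.94. Both ratios overlapped between the groups.

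Astl fell. It encodes ovastacin, the metalloprotease stored in cortical granules that cuts ZP2 after sperm entry. Its signal (1438136_at) was 4129, 7651, 5179 and 4891 on MII arrays 1 to 4 and 1093, 1072, 983 and 1083 on one-cell arrays 1 to 4. Every embryo array was below every oocyte array. The embryo batches were close to each other, with a coefficient of variation of 4.76% against 27.9% among the oocyte batches. On the log2 scale the SD among one-cell arrays was 0.07, where the median gene had 0.56. The mean fell from 5463 ± 1524 (SD, n = 4) to 1058 ± 50.3, a log2 change of -2.32 ± 0.30, which is 4.996-fold (95% interval -2.95 to -1.69, limma adjusted p = 2.04e-05, exact permutation p = 0.0286). Of 12359 genes 168 fell further, which is 1.36%. The signal in embryos was still well above the array medians. The call held in all 20 other settings, with changes from -2.64 to -1.90.

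Izumo1r rose most among the 7. Juno, its product, is a membrane-anchored relative of the folate receptors that binds IZUMO1 on sperm. Its signal (1420700_s_at, a suffix that marks probes able to match more than 1 transcript) was 129, 163, 99.9 and 198 on MII arrays 1 to 4 and 3201, 2138, 1495 and 3457 on one-cell arrays 1 to 4. The lowest embryo array was far above the highest oocyte array, and all 8 signals were above the array medians. The mean rose from 147.5 ± 42.4 (SD, n = 4) to 2573 ± 918, a log2 change of 4.00 ± 0.32 or 16.0-fold (95% interval 3.32 to 4.68, limma adjusted p = 3.01e-07, exact permutation p = 0.0286). A greater rise was found in 42 of 12359 genes, or 0.34%. The call held in all 20 other settings, with changes from 3.52 to 4.23.

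Cd9 rose as well. CD9 is a tetraspanin, a membrane protein that organises microvilli on the egg surface. The Cd9 signal (1416066_at) was 71.0, 6.0, 64.4 and 6.1 on MII arrays 1 to 4 and 365, 301, 228 and 211 on one-cell arrays 1 to 4. All embryo arrays were above all oocyte arrays, but MII arrays 2 and 4 were under their own medians, so the oocyte level is poorly set. Cd9 was above the median on 4 one-cell arrays and 2 MII arrays. Without the embryo arrays, where it is high, it would not have reached the 4 arrays that the filter asks for. The mean was 36.9 ± 35.7 (SD, n = 4) among oocyte batches and 276 ± 71.0 among embryo batches, a log2 change of 2.99 ± 0.50 (95% interval 1.92 to 4.05, limma adjusted p = 0.000263, exact permutation p = 0.0286). With every value under an array's median set to that median, the change was 2.28 (adjusted p = 1.75e-05). It was 1.98 with an offset of 50 and 3.62 with an offset of 1, and the call held in all 20 other settings. The RefSeq gene table also lists a pseudogene, Cd9-ps, and whether its RNA reaches these probes was not tested.

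Cd81 fell, with a call that rested on few arrays. CD81 is a tetraspanin related to CD9 that takes part in fusion beside it. The Cd81 signal (1416330_at) was 82.6, 210.1, 65.1 and 90.1 on MII arrays 1 to 4 and 126, 14.5, 18.3 and 8.6 on one-cell arrays 1 to 4. One-cell arrays 2 to 4 were below every oocyte array and under their own medians, while one-cell array 1 was higher than 3 of the 4 oocyte arrays. The mean was 112 ± 66.2 (SD, n = 4) among oocyte batches and 41.8 ± 56.1 among embryo batches, a log2 change of -1.61 ± 0.56 (95% interval -2.79 to -0.44, limma adjusted p = 0.0346, exact permutation p = 0.114). Without one-cell array 1 the change was -2.25 (limma adjusted p = 0.000366). Cd81 passed the filter through the 4 MII arrays and 1 one-cell array, and without a filter the call was lost (adjusted p = 0.0679). With values under the array median set to it, the change was -0.96 and did not pass (adjusted p = 0.0832). The call was lost in 9 of 19 other settings, among them leaving out MII array 1, 2 or 4 or one-cell array 2, 3 or 4 (-1.70 to -1.28, adjusted p = 0.0612 to 0.131). The cumulus and granulosa marker sum was also highest on one-cell array 1. So were the array median (71.8) and the summed signals of sperm RNA markers (949.9) and of sperm-side binding and fusion genes (1576). The part of any of these in the Cd81 signal there was not tested.

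**Figure D2:**
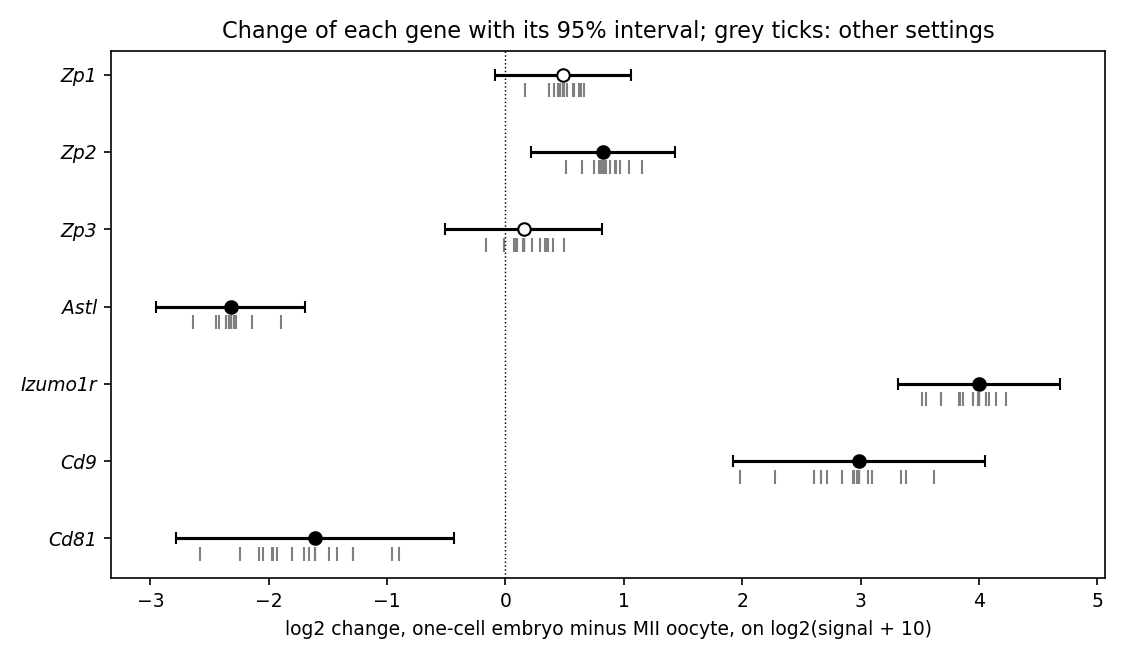
Log2 change of each gene from MII oocytes to one-cell embryos, computed on log2(signal + 10), with its 95% interval from limma (filled points, adjusted p under 0.05), and grey ticks for the same gene under the other settings. The ticks of Izumo1r (3.52 to 4.23), Cd9 (1.98 to 3.62) and Astl (-2.64 to -1.90) stay far from 0, and those of Zp3 (-0.16 to 0.50) lie on either side of it.

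Ratios between members above the median of every array, taken on the signals with no offset, show how unequal the changes were. The log2 ratio of Astl to Izumo1r ran from 4.63 to 5.70 on the MII arrays and from -1.67 to -0.60 on the one-cell arrays, a mean difference of -6.43. The ratio of Zp3 to Izumo1r changed by -3.94 and that of Zp3 to Astl by 2.49, in either case with no overlap between the groups. These ratios compare probe sets and so show a change in proportion between the groups, not which mRNA was the more abundant.

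**Figure D3:**
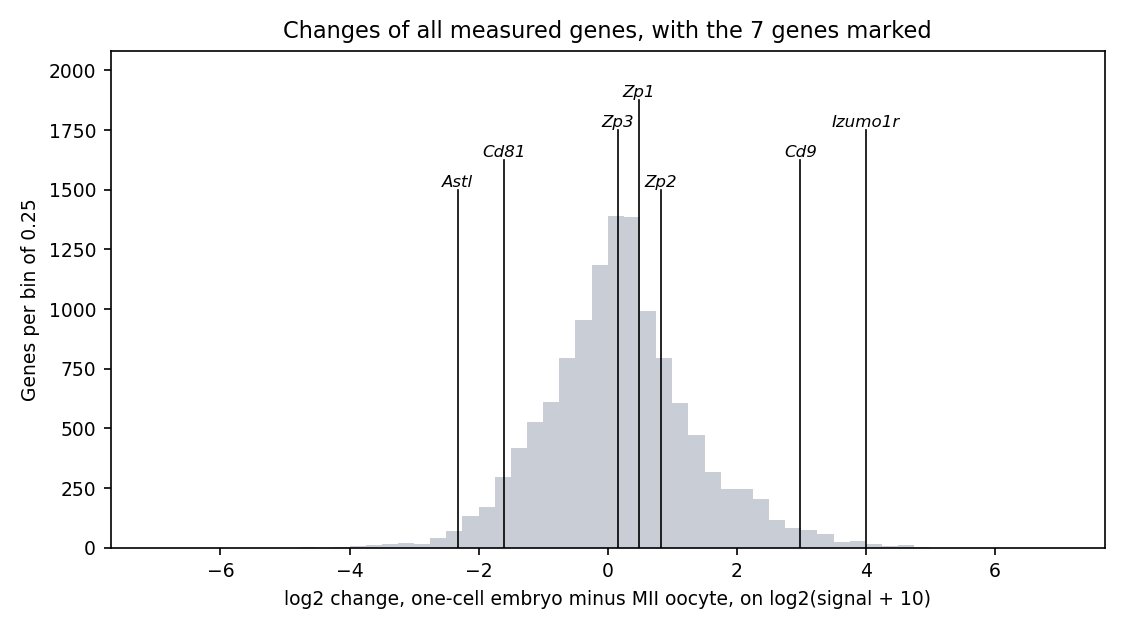
Number of genes in each bin of log2 change, one-cell embryo minus MII oocyte, over 12359 genes, with a line at the change of each of the 7 members. Izumo1r (4.00) and Cd9 (2.99) lie in the upper tail, Astl (-2.32) in the lower one, Zp1 and Zp3 near the centre, and Zp2 (0.82) to the right of it.

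The genes with the most similar profiles were sought by the root mean square difference between profiles over the 8 arrays, each centred on its own mean on log2(signal + 10). Closest to Izumo1r were the small GTPase gene Rab3b (0.20) and the kinesin gene Kif17 (0.22), where the median of 11563 genes differed by 2.01. They were also the closest 2 after quantile normalization and without one-cell array 1. Closest to Astl were Tarsl2 (0.14) and the UDP-galactose transporter gene Slc35a2 (0.20), and closest to Cd9 were the replication protein gene Rpa2 (0.48) and Srfbp1 (0.50). Cd81 was nearest to Il1rl2 (0.34) and Cog5 (0.46). The nearest profiles to the zona genes were Gps1 (0.14) and Rhbdd1 (0.16) for Zp1, Cdca7l (0.12) and Tmcc2 (0.15) for Zp2, and R3hcc1l (0.12) and Timeless (0.13) for Zp3. Several of these were no longer among the nearest after quantile normalization: R3hcc1l differed from Zp3 by 0.65, Slc35a2 and Tarsl2 from Astl by 0.59 and 0.47, and Rhbdd1 from Zp1 by 0.38.

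Among 8 transcription factors of zona genes, 2 rose (25%, against 20.1% of all genes), 1 fell (12.5%, against 14.7%) and 5 did not pass the test. Their median change was 0.38. Nobox, a homeobox factor of the growing oocyte, rose from 129 ± 53.8 (SD, n = 4) to 1863 ± 601, a log2 change of 3.77 ± 0.32 (limma adjusted p = 5.71e-07). Lhx8 rose by 1.71 ± 0.40 (adjusted p = 0.00365), a call lost after median centring (1.40, adjusted p = 0.111). Sohlh2 changed by -1.56 ± 0.54 (adjusted p = 0.036), and its call was lost in 9 of 21 other settings. Figla, the factor needed for expression of all 3 zona genes, was dim, with signals of 15.7 to 47.8 in oocytes and 24.0 to 96.1 in embryos, and did not pass (0.47 ± 0.46, adjusted p = 0.494). Figla was chosen after its value was seen.

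Cortical granules fuse with the membrane through SNARE proteins and release ovastacin. Of the 22 genes on the array for their content and exocytosis 17 were kept, of which 9 rose (52.9%, against 20.1% of all genes) and 2 fell (11.8%, against 14.7%), with a median of 1.03 against 0.16 for all genes. After quantile normalization or median centring 7 rose. The other kept probe sets of Rph3a, Stxbp2, Rab27a, Cplx2 and Napg, all among the 9, changed by 0.04 to 1.11 and did not pass. Stx4a and Stxbp2, also among the 9, were above the median on 1 and 2 MII arrays. They would not have been kept without the one-cell arrays. Plat, which encodes tissue plasminogen activator, changed by -3.30 ± 0.33, like Astl a fall, although its other kept probe set changed by 0.93 and did not pass. Napa, an adaptor that takes SNARE complexes apart, rose by 1.998 ± 0.32 (limma adjusted p = 0.000142). Fetub encodes fetuin-B, the inhibitor that keeps ovastacin in check. Its signal was 122 to 180 on the MII arrays and 397 to 614 on the one-cell arrays, with no overlap, and its log2 change was 1.72 ± 0.27 (adjusted p = 0.000146). Fetub rose and Astl fell in the same arrays, and any link between these changes was not tested. Snap23, the SNARE of cortical granule release, chosen after its value was seen, did not pass (0.19 ± 0.27, adjusted p = 0.65).

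In limma, 15 kept genes for tetraspanin partners and egg surface adhesion proteins were counted by their brightest probe set. Of these, 0 rose (1 at an unadjusted p under 0.05), against 20.1% of all genes. A further 3 fell (20%, against 14.7%), and the median was 0.14. The count leaves out calls of other kept probe sets. That of Itga3 changed by 2.47 and passed, and the other 2 of Rdx and 1 of Itga9 fell and passed. Ptgfrn, a direct partner of CD9 and CD81, fell from 419 ± 21.6 (SD, n = 4) to 82.2 ± 33.4 (-2.28 ± 0.30, adjusted p = 2.29e-05), while its other kept probe set changed by 0.33 and did not pass. Igsf8, the related partner, chosen after its value was seen, changed by 0.48 ± 0.41 and did not pass (adjusted p = 0.421). Itga6, an integrin subunit that was once studied as a sperm receptor, fell by 1.26 on the log2 scale (SE 0.32, adjusted p = 0.00573), and its call was lost after quantile normalization (-0.73, adjusted p = 0.0612). The complement regulator Cd55 changed by -1.30 ± 0.28, a call lost with its 3 kept probe sets averaged (-0.46, adjusted p = 0.138).

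Of 21 other tetraspanin genes kept, 2 rose (9.52%, against 20.1% of all genes), 1 fell (4.76%, against 14.7%) and 18 did not pass. Their median of 0.17 was close to that of all genes. Tspan33 rose by 1.93 ± 0.31 and Cd151 by 1.07 ± 0.30, the latter not after median centring (0.75, adjusted p = 0.239). Tspan9 changed by -1.20 ± 0.31, which missed the threshold after quantile normalization (-0.97, adjusted p = 0.0602). By the brightest probe set of each gene, the changes in this list ran from -1.20 to 1.93. The other kept probe set of Tspan31, a gene counted as not passing, rose by 2.34 and passed.

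Juno and ovastacin each belong to a family. In limma 0 of 5 kept folate receptor and astacin genes passed in either direction (0 at an unadjusted p under 0.05). Over all genes 20.1% were higher and 14.7% lower. The changes of the 5 ran from -0.35 to 0.52. Folr1 (62.8 ± 20.6 in oocytes and 80.5 ± 44.6 in embryos, SD, n = 4) and Folr2 (67.9 ± 15.5 and 52.8 ± 21.3), chosen after their values were seen, changed by 0.26 and -0.35 and did not pass. Juno reaches the membrane on a glycosylphosphatidylinositol anchor. Of 24 kept genes for making and attaching that anchor, 5 rose and 5 fell (20.8% each way, against 20.1% and 14.7% of all genes), with a median of -0.08. By its brightest probe set Pigq did not pass, although 4 of its 5 other kept probe sets rose and passed. The other kept probe sets of Piga and Pgap1, both counted as lower, changed by 0.93 and 0.09. Pigc (2.30 ± 0.33) and Dpm2 (1.84 ± 0.30) rose, and Pigp changed by -2.13 ± 0.29.

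Zona proteins and their relatives pass through the secretory pathway. Of 21 kept genes for folding and N-glycosylation 3 rose (14.3%, against 20.1% of all genes) and 6 fell (28.6%, against 14.7%), with a median of -0.32. Pdia4 and Rpn2, among the 3, were above the median on 2 and 1 MII arrays. Both would have been left out without the one-cell arrays. C1galt1c1, among the 6, was above it on 2 one-cell arrays and would have been left out without the MII arrays. The other kept probe sets of Pdia4 and of Pdia6, which was counted as lower, changed by -0.43 and 1.00. That of Stt3b and 1 of Sec61a1, genes not counted, rose and passed. P4hb, a disulfide isomerase, fell from 7150.3 ± 1859 (SD, n = 4) to 619 ± 146 (-3.50 ± 0.31, limma adjusted p = 6.49e-07). Stt3a, a catalytic subunit of oligosaccharyltransferase, changed by -3.11 ± 0.34 and the chaperone calreticulin, Calr, by 2.30 ± 0.26. All 3 kept probe sets of Stt3a fell and all 3 of Calr rose. Among 10 kept genes for ZP-domain proteins and other oocyte-secreted relatives, 2 rose (20%, against 20.1% of all genes) and 1 fell (10%, against 14.7%). Their median was 0.15, against 0.16 for all genes. Umodl1 rose by 2.26 ± 0.29 and the dim Dmbt1 by 1.93 ± 0.44. Dmbt1 was above the median on 4 one-cell arrays and 2 MII arrays. It would have been left out without the one-cell arrays. With values under the array median set to it, the change of Dmbt1 was 1.45. Tgfbr3 changed by -2.62 ± 0.33, while the other kept probe set of Tgfbr3 changed by 0.37 and did not pass.

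**Figure D4:**
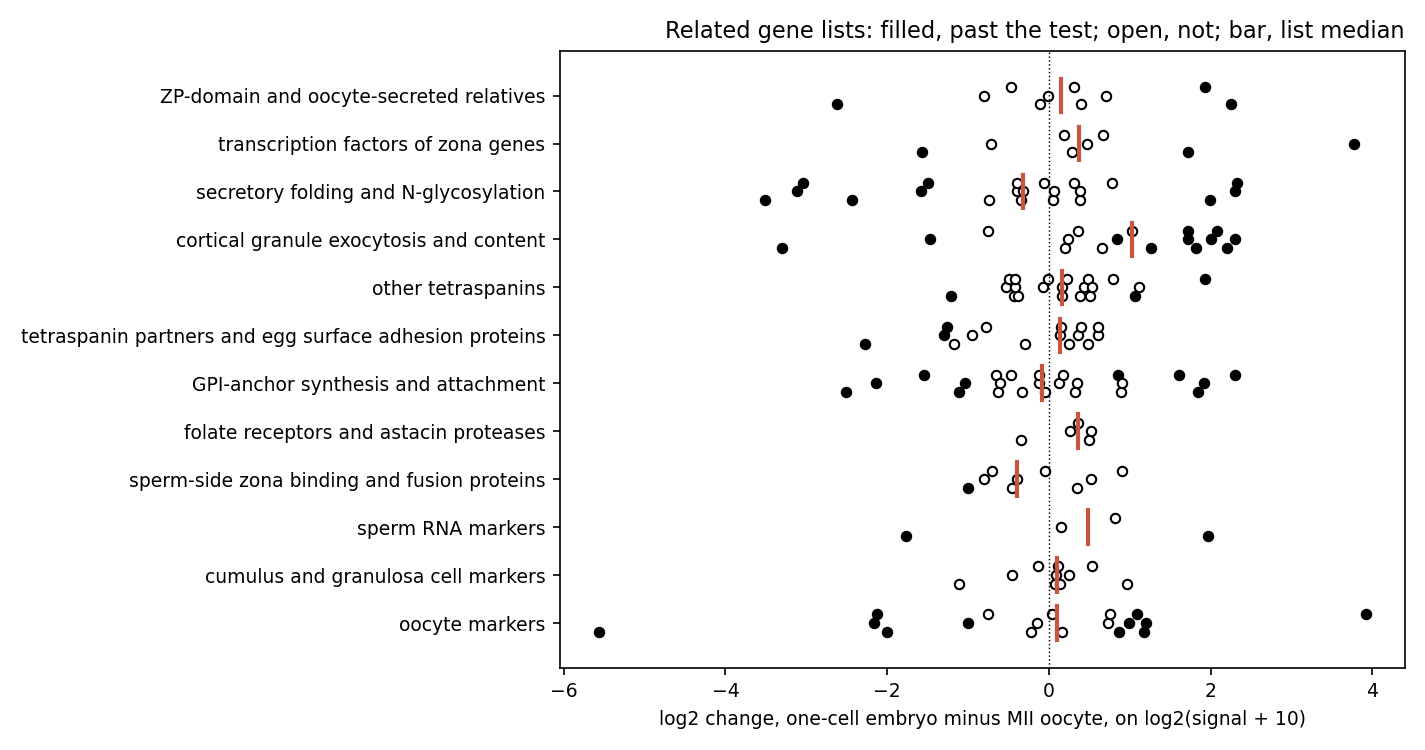
Log2 change of each kept gene in 12 related lists from MII oocytes to one-cell embryos, computed on log2(signal + 10), with filled points for genes past the limma test, open points for the rest and a red bar at the list median. The list medians run from -0.40 (sperm-side proteins) to 1.03 (cortical granules), and rises and falls occur side by side in most lists.

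Sperm-side genes served as a check on RNA from sperm. Of 21 sperm genes for zona binding and fusion on the array, 9 were kept. In limma 0 of them rose (0 at an unadjusted p under 0.05), against 20.1% of all genes. Only 1, Spam1, fell (11.1%, against 14.7% of all genes). Its change was -1.004 ± 0.35 (limma adjusted p = 0.0381), a call lost in 8 of 20 other settings. Izumo1, which encodes the sperm partner of Juno, lay under the median of every array, as did Izumo3, Spaca4, Spaca6 and Spesp1. Of 10 sperm RNA markers 4 were kept. The protamine gene Prm2 rose from 30.3 ± 12.5 (SD, n = 4) to 152 ± 69.3 (1.96 ± 0.39, adjusted p = 0.00103), Akap4 changed by -1.77 ± 0.41, and Smcp, Tnp1 and Tnp2 lay under the median of every array. Akap4 lay under the median on all 4 one-cell arrays and was kept through the 4 MII arrays, and it changed by -0.94 with values under the median set to it. Prm2 was above the median on 4 one-cell arrays and 2 MII arrays. The summed signal of the sperm RNA markers was 406 to 461 on the MII arrays and 421 to 949.9 on the one-cell arrays, highest on one-cell array 1. Among the 18 oocyte markers 6 rose (33.3%, against 20.1% of all genes) and 5 fell (27.8%, against 14.7%). They were led by Mos (-5.57 ± 0.31), Ybx2 (3.93 ± 0.39) and H1f8 (-1.999 ± 0.35). Only 1 oocyte marker rose after median centring.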

How the data were processed

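RNA from polysomes was amplified by 2 rounds of in vitro transcription and labelled with biotin, per the labels, and hybridised to 1-colour arrays. The values that the authors deposited are linear intensities in arbitrary units. The labels state neither array software, scaling nor genome build. With 2% of probe sets trimmed at either end, each array had a mean of 150.0, so no further scaling was done. The table has no detection calls, and amplification favours the 3′ ends of mRNAs. Of 45101 probe sets 64 are controls and 23336 of the rest were kept, of which 20009 have 1 gene symbol, 535 several and 2792 none. Symbols come from the platform annotation, updated through RefSeq.

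Limma 3.58.1 (R 4.3.3) was run on log2(intensity + 10) with lmFit and eBayes, using a variance trend. Tests were two-sided, with Benjamini-Hochberg adjustment over all kept probe sets, of which 7493 had an adjusted p under 0.05. Where a gene had several kept probe sets, the brightest stood for it. Up to 3 genes with the smallest p among those past the test were named per list, and the 2 nearest profiles per member, with clone names left out. The members and lists were chosen with earlier results of these data known. Alternatives covered normalization, offset, filter, variance model, array weights, hybridization controls as a covariate, the replicate block, left-out arrays and, chosen after the values were seen, setting values under an array's median to it. In simulated data of 23336 probe sets (200 changed, 5 runs), 4.24% of 2-fold, 54.6% of 4-fold and 92.5% of 16-fold changes passed, and 4.34% of calls were false. The simulation changed 200 probe sets, where 7493 passed here, and gave both groups the same normal spread. In the data the median SD over genes was 0.37 on the MII arrays and 0.56 on the one-cell arrays. These rates therefore do not describe the power or the false calls of the real comparison. With 4 arrays a group, precision is limited.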

Additional observations from a re-analysis of the deposited data

Results flagged for a closer look

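In 14 sets of 4 signals (7 genes in 2 groups), 2 held an array whose gap to its nearest neighbour was large for the range of the set, where chance gives about 1 in 20. The Zp3 signal of 1017.5 on one-cell array 1 lay far below the other 3 embryo arrays (1769 to 1873). The Cd81 signal of 125.7 on the same array lay far above the other 3 (8.6 to 18.3). That array also had the highest median signal, 71.8.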

How the results depend on the processing

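Izumo1r, Cd9 and Astl kept their direction and their call in 20 of 20 other settings. Member genes lower in one-cell embryos numbered 2, and 1 (Astl) with an offset of 50, without a filter, with the 75th percentile filter (which leaves out Cd81) and with values under the array median set to it. With single arrays left out they numbered 1 to 2 (2, and 3 higher, without one-cell array 1). Members higher numbered 3, 2 where Zp2 lost its call, or 4 with array weights, where Zp1 passed (0.64, adjusted p = 0.0456). Zp3, not called in any setting, turned to -0.16 after median centring and to -0.012 without MII array 1, and ran from -0.012 to 0.36 with single arrays left out. Why Zp2 and Cd81 lost their calls was not tested. The count of probe sets past the test was 5778 to 8597 over the other settings. Deviations of same-numbered arrays correlated at -0.16 to 0.14, and 2 of the 4 MII arrays correlated best with the one-cell array of their own number. These few values do not settle whether the batches were paired. With the replicate block 7209 probe sets passed against 7493, 3 members were higher and 2 lower, and no member's call changed. Signals under the array median, as for Cd9 in oocytes and Cd81 in embryos, limit those folds.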
